A study of Mus musculus with 8 samples.

Results

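The genes described here encode 10 enzymes of glycolysis and of lactate metabolism: the hexokinases Hk1 and Hk2, the aldolases Aldoa and Aldoc, the lower-pathway enzymes Gapdh, Pgk1, Eno1 and Pkm, and the lactate dehydrogenases Ldha and Ldhb. They were taken by symbol, whatever their level, and their levels and isoform use were followed across cell types and cycling states. The 10 symbols matched 11 of the 31058 rows of the count matrix, because Aldoa has a second Ensembl identifier (ENSMUSG00000114515) that held 2 unique molecular identifiers (UMIs) in all gated cells, against 32379 for ENSMUSG00000030695.

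Glycolysis splits glucose into pyruvate. Hexokinase traps glucose inside the cell, aldolase cuts the six-carbon sugar, the lower enzymes recover ATP and NADH, and lactate dehydrogenase interconverts pyruvate and lactate. Several steps have isoenzymes: Aldoc is the aldolase of brain astroglia and Aldoa the form of muscle and most other tissues, while subunits from Ldha form tetramers that favour lactate production and those from Ldhb tetramers that favour lactate use. Astrocytes are known as the glycolytic cells of the brain, and proliferating cells often raise glycolysis.

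The cells came from the dentate gyrus of mice on a mixed background that carry Nestin-GFP, which marks cells with an active Nestin promoter, a tamoxifen-inducible Cre at the Ki67 locus, and a tdTomato reporter that Cre switches on in dividing cells. All mice, at each age, received tamoxifen, and mice of 1 experiment were pooled before sorting on the reporters. By the labelled ages, 3 experiments were at 6 months, 3 at 2 months and 1 at 1 month, in 8 libraries (the study's methods give the oldest mice as 6 to 8 months, so that group spans a range of ages), since the first experiment at 2 months was sequenced as a pair of libraries. One library of that pair is labelled as also holding GFP-tdT- cells, and 580 of the 619 microglia-like cells came from that experiment. No untreated or wild-type control was part of the series. All experiments at 2 months used Version 2 chemistry and all others Version 3, so this age and the chemistry cannot be told apart. The libraries held from 4861883 to 43826338 UMIs, and 24376 of 26036 barcodes passed the filters.

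Cells were assigned to groups by markers that include none of the 10 genes, so that every label below means "like" that type by its markers. Of the cells that passed, 13541 were gated, 6429 carried markers of more than 1 lineage and were set aside, and 4406 met no gate. The groups were 1230 quiescent neural stem cell (NSC)-like cells, 93 cycling NSC-like cells, 1391 astrocyte-like cells, 293 cycling intermediate progenitor (IPC)-like cells, 703 neuroblast-like cells, 2040 non-cycling oligodendrocyte precursor (OPC)-like cells, 5952 oligodendrocyte-like cells, 619 microglia-like cells, 385 endothelial-like cells and 816 mural-like cells. A level is given as CPM, counts scaled to a common total for every sample, that is the scaled share of a gene in the UMIs summed over the cells of a group in 1 experiment, for experiments with at least 10 such cells. It is a relative level, so by itself it does not tell less RNA of a gene per cell from more of all other RNA. As libraries count the 3′ end of each molecule once, genes were compared without a correction for length.

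The isoenzyme genes lie apart in the genome (GRCm38). Aldoc is at chr11:78322968-78327781 on the plus strand and Aldoa at chr7:126795234-126800751 on the minus strand. Ldha is at chr7:46841475-46855627 on the plus strand and Ldhb at chr6:142490249-142507957 on the minus strand. Since the results turn on which partner of a pair is used, the 250 bases before a RefSeq start (GRCm38.p6) are shown for Ldha, Ldhb and Aldoc, 5′ to 3′ on the gene's strand. Each match to ACGTG is in capitals, in either orientation. ACGTG is a form of the core of the hypoxia response element and part of the E-box. The form of that core with G as its first base was not marked or counted. The Ldha window is chr7:46845554-46845803, the Ldhb window chr6:142507958-142508207 and the Aldoc window chr11:78322823-78323072.
Ldha: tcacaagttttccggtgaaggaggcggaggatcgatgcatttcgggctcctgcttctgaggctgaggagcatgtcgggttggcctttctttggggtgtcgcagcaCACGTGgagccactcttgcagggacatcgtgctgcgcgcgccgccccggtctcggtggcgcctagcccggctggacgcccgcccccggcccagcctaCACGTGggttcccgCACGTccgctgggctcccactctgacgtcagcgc
Ldhb: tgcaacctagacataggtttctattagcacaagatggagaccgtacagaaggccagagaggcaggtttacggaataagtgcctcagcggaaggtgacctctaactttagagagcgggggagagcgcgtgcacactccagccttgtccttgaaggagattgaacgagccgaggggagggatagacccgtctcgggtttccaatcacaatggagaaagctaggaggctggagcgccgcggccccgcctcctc
Aldoc: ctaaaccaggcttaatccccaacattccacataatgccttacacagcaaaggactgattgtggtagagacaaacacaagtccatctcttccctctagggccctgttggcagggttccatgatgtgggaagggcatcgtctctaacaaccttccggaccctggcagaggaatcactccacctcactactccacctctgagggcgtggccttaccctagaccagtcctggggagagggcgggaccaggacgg
The Ldha window holds the palindrome CACGTG at 145 and 48 bases before the start, each of which contains ACGTG on both strands, and a further ACGTG match at 34 bases. The Ldhb and Aldoc windows hold no match to ACGTG, and a match for Aldoc starts at base 28 of the transcribed part. Ldha and Aldoc each have a further listed start, and neither of those windows holds a match. Of 32851 promoters of 300 bases in the table, 19.6% hold ACGTG and 7.15% hold CACGTG on either strand. Aldoa has 3 listed starts, and none is shown. Which start is used is not known from 3′ counts, for Aldoa or for Ldha and Aldoc. Promoters of 300 bases also held ACGTG for Hk1, Hk2, Aldoa, Gapdh, Pgk1 and Pkm, whereas those of Eno1 and Ldhb held none, so Ldha was not alone in the set. These are letter matches only, and binding was not measured.

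Reads can be assigned with unequal certainty. For Aldoa, Aldoc, Hk1, Hk2, Ldha, Pgk1 and Pkm, 0.0% of the 91-base windows in the last 500 bases of the first-listed coding transcript recur in a transcript of another gene. For Gapdh, which has many processed copies, 79.5% of the windows recur elsewhere in the annotation, 70.2% in genes that are rows of the matrix. For Eno1 the share was 53.4%, with the retrogene Eno1b as the row concerned, and for Ldhb 13.9%, none in a listed gene. Gapdh and Eno1 levels are therefore uncertain in absolute terms. Eno1b itself held 256 UMIs in the gated cells, against 13000 for Eno1. The 3′ counts of Pkm do not separate its PKM1 and PKM2 splice forms.

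The 10 genes together took the largest share of the RNA in astrocyte-like cells and the smallest in neuroblast-like cells. Their summed level was 12000 ± 992 CPM (SD, n = 7 experiments) in astrocyte-like cells and 7350 ± 591 CPM (n = 7) in quiescent NSC-like cells. It was 3620 ± 496 CPM (n = 3) in cycling NSC-like cells and 3620 ± 317 CPM (n = 7) in mural-like cells. The lowest sums were 2080 ± 156 CPM (n = 7) in oligodendrocyte-like and 1660 ± 57.3 CPM (n = 7) in neuroblast-like cells. The ranges over experiments did not overlap between astrocyte-like and quiescent NSC-like cells, nor between the latter and cycling NSC-like cells, whereas the cycling NSC-like and mural-like ranges did. Aldoc alone accounted for most of the sum in both non-cycling astroglial groups. It stood at 3950 ± 225 CPM in quiescent and 257 ± 180 CPM in cycling NSC-like cells. This fall of Aldoc is nearly as large as that of the sum, so the lower sum does not describe the other genes.

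**Figure D1:**
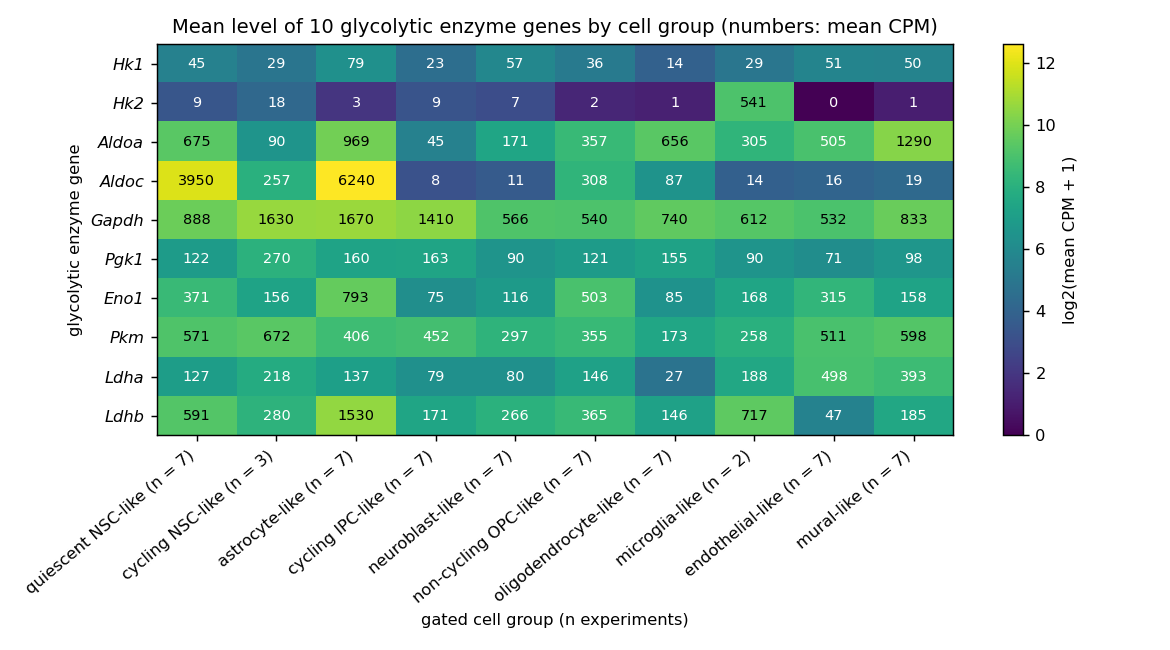
Mean level of each of the 10 genes (rows) in each gated cell group (columns, with the number of experiments), as mean CPM printed in the cell and log2(mean CPM + 1) as colour. Aldoc stands at 3950 and 6240 CPM in quiescent NSC-like and astrocyte-like cells and at 308 CPM or less elsewhere, Hk2 at 541 CPM in microglia-like cells and at 18.1 CPM or less elsewhere.

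Of the aldolases, Aldoc ranged most between groups. In astrocyte-like cells its lowest, median and highest levels over 7 experiments were 5280, 6350 and 7070 CPM, and in quiescent NSC-like cells 3660, 3900 and 4340 CPM. Next came non-cycling OPC-like cells at 308 ± 63.3 CPM (n = 7) and cycling NSC-like cells at 257 ± 180 CPM (n = 3), whose ranges overlapped. Astrocyte-like and quiescent NSC-like cells were thus separate from each other and from all other groups. Oligodendrocyte-like cells had a median of 58.5 CPM, with 1 high value of 265 CPM from the 13 such cells at 1 month. Mural-like, endothelial-like, microglia-like, neuroblast-like and cycling IPC-like cells had means of 8.1 to 18.7 CPM with overlapping ranges.

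Free RNA released from astroglia enters all droplets, so Aldoc was set beside tracers, astroglial genes given as a percentage of their astrocyte-like level. In neuroblast-like cells Aldoc stood at 0.178% of its astrocyte-like level, and Slc1a2, Slc4a4, Mt3 and Cspg5 at 2.17%, 0.676%, 0.904% and 1.52%. In cycling IPC-like cells Aldoc stood at 0.13% and the 4 tracers at 0.355% to 1.68%. Aldoc in both neuronal groups thus stood below all 4 tracers, and no expression of Aldoc is claimed there. In mural-like, endothelial-like and microglia-like cells Aldoc was at 0.299%, 0.252% and 0.22%, within the range of the tracers in each. In oligodendrocyte-like cells Aldoc was at 1.39%, within the tracers' 0.173% to 1.47%. In non-cycling OPC-like cells it was at 4.93%, beside 4.51% for the glutamate transporter Slc1a2, 1.88% for Slc4a4 and 7.7% for Mt3, while Cspg5, which OPCs make themselves, stood at 188%. The part of free RNA in the Aldoc levels of all these groups was not tested.

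Aldoa, the partner enzyme, had another order. Mural-like cells were highest at 1290 ± 180 CPM (n = 7), followed by astrocyte-like cells at 969 ± 156 CPM, quiescent NSC-like cells at 675 ± 98.8 CPM and oligodendrocyte-like cells at 656 ± 126 CPM (n = 7 each). Each of these neighbours overlapped in range. The low end was formed by neuroblast-like cells at 171 ± 15.4 CPM (n = 7), cycling NSC-like cells at 90.5 ± 13.1 CPM (n = 3) and cycling IPC-like cells at 44.8 ± 10.3 CPM (n = 7), and these 3 ranges did not overlap. In cycling OPC-like cells, taken by a wider gate described below, Aldoa was at 130 ± 51.9 CPM (n = 3, 73.9 to 177 CPM). That range overlapped those of neuroblast-like and cycling NSC-like cells.

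The lactate dehydrogenases were also distributed unequally. Ldhb was highest in astrocyte-like cells, with 1140, 1450 and 1910 CPM as lowest, median and highest experiment. Microglia-like cells gave 704 and 729 CPM in the 2 experiments that held them, and quiescent NSC-like cells 371, 630 and 784 CPM. Endothelial-like cells were lowest at 46.8 ± 26.9 CPM (n = 7). Ldha instead was highest in the vessel-associated groups, at 498 ± 183 CPM in endothelial-like and 393 ± 52.5 CPM in mural-like cells (n = 7 each), which overlapped. Oligodendrocyte-like cells held the least Ldha, 26.9 ± 7.1 CPM (n = 7), with no overlap with any other group.

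Of the lower-pathway enzymes, Gapdh was highest in astrocyte-like cells (1670 ± 208 CPM, n = 7), cycling NSC-like cells (1630 ± 210 CPM, n = 3) and cycling IPC-like cells (1410 ± 175 CPM, n = 7), whose ranges overlapped. Pgk1, the first ATP-yielding step, was highest in cycling NSC-like cells at 270 ± 57.2 CPM (n = 3), where the other groups listed above had means of 70.8 to 163 CPM. Cycling OPC-like cells, taken by a wider gate described below, had 208 ± 23.1 CPM (n = 3), with overlap. Eno1, which makes phosphoenolpyruvate, was highest in astrocyte-like cells at 793 ± 258 CPM and next in non-cycling OPC-like cells at 503 ± 90.8 CPM (n = 7 each), with overlap. Pkm, the pyruvate kinase, had means from 173 ± 33.9 CPM (n = 7) in oligodendrocyte-like to 672 ± 117 CPM (n = 3) in cycling NSC-like cells.

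The hexokinases were low. Hk1 had means of 13.9 CPM in oligodendrocyte-like to 78.6 CPM in astrocyte-like cells. Hk2 stood at 461 CPM in the 580 microglia-like cells of the first experiment at 2 months and at 622 CPM in the 26 of the first at 6 months. In all other groups its mean was 18.1 CPM or less. In endothelial-like cells 0 of 899398 UMIs were from Hk2, which allows a level of up to 3.34 CPM (3 counts over all experiments, counting error only). In the microglia-like cells the immediate early and heat shock genes that mark dissociation stress summed to 15900 and 28100 CPM, against means of 672 CPM in astrocyte-like, 12600 CPM in endothelial-like and 16200 CPM in mural-like cells. In the last pair of groups Hk2 stood at 0 and 1.08 CPM. The part of dissociation stress in the microglia-like Hk2 level was not tested.

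Over the means of 10 groups, the genes closest in pattern to each isoenzyme were named from 10683 genes with at least 20 CPM in some group, by Pearson's r of log2(CPM + 1). For Aldoc these were Chil1 (r = 0.991), Mfap3l (0.991) and Baalc (0.98). For Aldoa they were Rabac1 (0.967), Cbx7 (0.964) and Lmbrd1 (0.956), for Ldha Ccnd3 (0.944), Crtap (0.935) and Ptp4a3 (0.929), and for Ldhb Soat1 (0.943), Sema4b (0.942) and Slc9a8 (0.925). These are descriptions over 10 points that share libraries and depth.

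Isoform use was expressed as the share of a pair's UMIs that came from 1 partner. The share of Aldoc in Aldoa and Aldoc was 86.6% ± 1.14 (SD, n = 7) in astrocyte-like and 85.4% ± 1.76 (n = 7) in quiescent NSC-like cells, 46.1% ± 4.84 in non-cycling OPC-like cells and 5.73% ± 4.31 in neuroblast-like cells (n = 7 each). In mural-like cells it was 1.34% ± 1.79 (n = 7). In cycling NSC-like cells it was 81.8% at 1 month (203 UMIs of the pair) and 75.5% in the second experiment at 6 months (94 UMIs). It was 40% in the first experiment at 2 months, from 4 of 10 UMIs in 13 such cells, the fewest UMIs allowed. The share of Ldhb in Ldha and Ldhb was 91.6% ± 2.4 in astrocyte-like cells, 81.9% ± 4.69 in quiescent NSC-like cells, 31.7% ± 7.36 in mural-like cells and 9.21% ± 6.16 in endothelial-like cells (n = 7 each). Among the groups gated here, those 2 vessel-associated groups alone had a mean share below 50%. The share of Hk1 in the hexokinase pair was 4.62% and 5.56% in the 2 microglia-like samples and had means of 60.8% or more elsewhere.

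**Figure D2:**
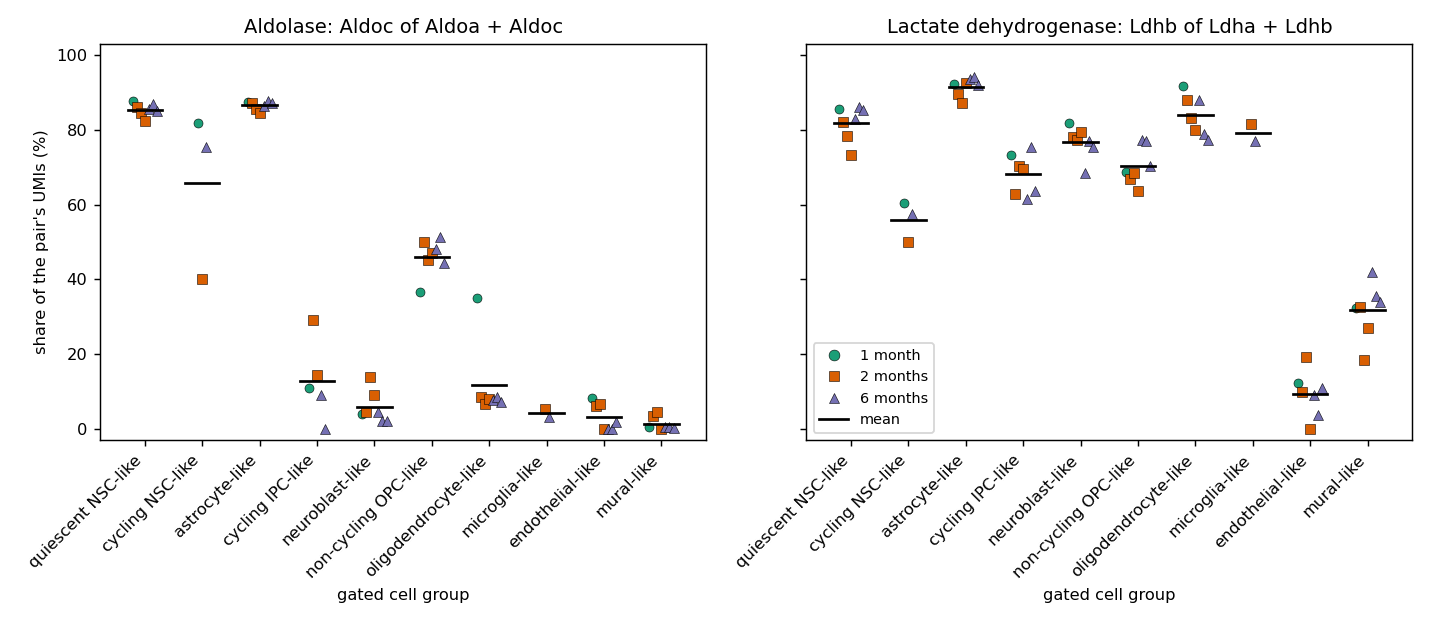
Share of Aldoc in Aldoa and Aldoc (left) and of Ldhb in Ldha and Ldhb (right), in percent of the pair's UMIs, by gated cell group, with 1 point per experiment (shape and colour give the age) and a line at the mean. Aldoc was the main aldolase in the astroglial groups, near 46.1% in OPC-like cells and a minor one elsewhere, and Ldhb fell below 50% only in the endothelial-like and mural-like groups.

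Shares were compared within experiments by two-sided exact sign-flip tests, adjusted over 17 tests by the Benjamini-Hochberg method. With 7 experiments the smallest possible p is 0.0156, and none of the 17 passed 0.05 after adjustment. The Ldhb share was higher in astrocyte-like than in quiescent NSC-like cells in 7 of 7 experiments, by 9.73 percentage points ± 4.53 (SD of the differences, adjusted exact p = 0.0531). It was also higher in neuroblast-like than in cycling IPC-like cells in 7 of 7, by 8.68 points ± 4.35 (adjusted exact p = 0.0531), and in oligodendrocyte-like than in non-cycling OPC-like cells in 7 of 7, by 13.6 points ± 7.56 (adjusted exact p = 0.0531). The Aldoc share differed between neuroblast-like and quiescent NSC-like cells by -79.7 points ± 5.56, lower in 7 of 7 (adjusted exact p = 0.0531). The part of free RNA in the neuroblast-like Aldoc was not tested. Between oligodendrocyte-like and non-cycling OPC-like cells the Aldoc share differed by -34.5 points ± 14.5, lower in 7 of 7 (adjusted exact p = 0.0531). Astrocyte-like and quiescent NSC-like cells differed in the Aldoc share by 1.17 points ± 0.891 (adjusted exact p = 0.0885). In cycling NSC-like cells the Ldhb share was 56.0% ± 5.37 against 84.5% ± 2.08 in quiescent NSC-like cells of the same 3 experiments, lower in 3 of 3, where no exact p below 0.25 is possible. Their Aldoc share differed by -21.1 points ± 21.9, also lower in 3 of 3, and by -8.59 points without the first experiment at 2 months.

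Astrocyte-like cells carried more of nearly the whole set than quiescent NSC-like cells. Of the 10 genes 8 were detected in 20% or more of the cells in one group or the other, the filter used for testing, and with edgeR's quasi-likelihood test 7 were higher and 1 lower (Benjamini-Hochberg adjusted p below 0.05). Of all 3219 genes tested, 54.3% were called, 26.9% higher and 27.4% lower. The median log2 fold change was 0.78 over the 8 genes and -0.04 over all genes. Ldhb differed most, with 1530 ± 299 against 591 ± 160 CPM and a log2 fold change of 1.58 ± 0.09 (SE, adjusted p = 1.7e-13). Eno1 was higher by 1.30 ± 0.11 (6.9e-10), Gapdh by 1.11 ± 0.08 (2e-11), Aldoc by 0.85 ± 0.07 (2.9e-10), Aldoa by 0.72 ± 0.08 (4.3e-08) and Pgk1 by 0.54 ± 0.10 (6.1e-05), each in 7 of 7 experiments.

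Ldha and Pkm were less firm. Ldha was 137 ± 32.1 CPM in astrocyte-like and 127 ± 32.9 CPM in quiescent NSC-like cells, higher in 4 of 7 experiments. Its call of 0.49 ± 0.13 (adjusted p = 0.0034) rested on the scaling. By total UMIs, here and below the total over the genes tested, it was 0.29 (adjusted p = 0.059). Pkm was lower in 6 of 7 experiments, by -0.24 ± 0.09 (adjusted p = 0.03), and lost its call when any 1 of 4 experiments was left out (adjusted p 0.059 to 0.074 without the one at 1 month, the second at 2 months, the third at 2 months or the second at 6 months). Hk1 was 78.6 ± 26.6 against 45.2 ± 18.5 CPM, and Hk2 2.79 ± 3.59 against 9.27 ± 8.61 CPM, both below the filter. TMM scaling, used for all fold changes here, centres on the bulk of genes, and by total UMIs the median of all genes was -0.25. In that scaling 6 of the 8 genes were called higher and 1 lower, and 30.4% of all calls were higher in place of 49.5%.

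Of 40 other genes of glycolysis, its regulators, glucose and lactate transport and pyruvate entry into mitochondria, 13 were tested, 11 were higher in astrocyte-like cells and 0 lower, with a median of 0.55, while Pfkl (-0.06 ± 0.15, adjusted p = 0.78) and Pgam1 (0.21 ± 0.09, 0.052) were not called. The steepest were the phosphofructokinases Pfkp, at 4.12 ± 0.22 (adjusted p = 7.8e-14), and Pfkm, at 2.17 ± 0.13 (7.9e-13), and the glucose transporter Slc2a1, at 1.55 ± 0.17 (4.3e-08). In quiescent NSC-like cells alone, 8 of the 40 genes passed the filter. Pfkp, Pfkm, Slc2a1 and Pdha1 were among those that passed through astrocyte-like cells only. For them the filter itself favoured a higher call, so the count and the median lean the same way. Of 16 tricarboxylic acid cycle enzymes, 13 were tested and 13 were higher, with a median of 0.53. Moving with this comparison, the summed dissociation genes were 4340 CPM in quiescent NSC-like and 672 CPM in astrocyte-like cells (5 of 5 tested lower), and their part in the result was not tested. Of 12 hypoxia genes outside glycolysis 6 were tested, with 2 higher and 1 lower. The higher ones, P4ha1 and Vegfa, also passed the filter through astrocyte-like cells only, which favoured that direction.

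In cycling NSC-like cells the set split. Gapdh, Pgk1 and Ldha were higher than in quiescent NSC-like cells, and Aldoc, Aldoa, Ldhb and Eno1 were lower (edgeR, 9 genes tested, 3 experiments). Of all 5921 genes tested 41.8% were called, 20.3% higher and 21.5% lower, and the median was -0.78 over the 9 genes and -0.03 over all. The 3 experiments with at least 10 cycling cells were the one at 1 month (34 cells), the first at 2 months (13) and the second at 6 months (16).

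Aldoc stood at 395, 52.6 and 323 CPM in cycling cells of these experiments, in that order, from 166, 4 and 71 UMIs. It was at 4100, 3660 and 4340 CPM in their quiescent cells, a log2 fold change of -4.02 ± 0.22 (adjusted p = 3e-38). Relative to astrocyte-like cells the Aldoc level of cycling cells was 4.12%. The tracers Slc1a2, Slc4a4, Mt3 and Cspg5 were at 6.03%, 0.369%, 16.8% and 13.2% in the same cells. The groups were far apart in every experiment, and the 8 astroglial markers summed to 3000 CPM in cycling and 10100 CPM in quiescent cells.

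Aldoa followed, with 88.0, 78.9 and 105 CPM in cycling and 574, 586 and 661 CPM in quiescent cells (-2.91 ± 0.21, adjusted p = 1.1e-26). Ldhb was at 283, 224 and 332 against 671, 371 and 784 CPM (-1.36 ± 0.18, adjusted p = 5.1e-11), and Eno1 at 121, 197 and 150 against 222, 349 and 343 CPM (-1.17 ± 0.19, adjusted p = 6.8e-08). For these 4 genes each experiment showed the same direction. In these experiments cycling cells held 12369.4, 5847.4 and 13724.3 UMIs per cell on average, against 5743.5, 2718.9 and 5653.3 in quiescent cells. The lower values are shares of UMIs, and levels per cell were not compared.

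Ldha rose against its partner, at 185, 224 and 246 CPM in cycling cells and 108 ± 24.3 CPM (n = 3) in quiescent cells of the same experiments (0.69 ± 0.19, adjusted p = 0.0014). Gapdh was at 1800, 1390 and 1680 against 1020, 674 and 988 CPM (0.66 ± 0.16, adjusted p = 0.00037). Pgk1 was at 323, 276 and 209 CPM against 129 ± 9.15 CPM (0.88 ± 0.18, adjusted p = 1.2e-05), a call that was lost without the experiment at 1 month (0.74, adjusted p = 0.057). In these experiments the groups did not overlap for these 3 genes. Pkm was at 672 ± 117 against 531 ± 67.6 CPM (0.14 ± 0.16, adjusted p = 0.53) and Hk1 at 29.0 ± 8.0 against 43.3 ± 9.61 CPM (-0.78 ± 0.34, adjusted p = 0.057), neither called, and Hk1 was called in the wider gate used for OPC-like cells (-0.84, adjusted p = 0.004). Hk2, below the filter, was at 18.1 ± 7.13 against 7.87 ± 2.13 CPM. Cycling NSC-like cells were deeper, with 5850 to 13700 UMIs per cell on average per experiment against 1520 to 6470 in quiescent ones over all experiments. By total UMIs the same numbers of genes were called, 3 higher and 4 lower, the median of all genes was 0.15, and 61.3% of all calls were higher in place of 48.5%.

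Of the 40 other pathway genes 14 were tested, 1 was higher and 5 lower. The higher one was Slc2a4, the insulin-responsive glucose transporter GLUT4, at 4.29 ± 0.86 (adjusted p = 9.6e-06). Slc2a4 was below the filter in quiescent NSC-like cells and was tested only through the deeper cycling cells, so the filter favoured this direction. The steepest lower ones were Pfkl, at -1.38 ± 0.34 (0.00032), the pyruvate carrier Mpc1, at -1.09 ± 0.17 (3.2e-08), and Bsg, the chaperone of lactate transporters, at -0.69 ± 0.17 (0.00029). Of 16 tricarboxylic acid cycle genes tested, 2 were higher and 2 lower. Of 5 hypoxia genes tested 0 were higher and 4 lower: Bnip3, Bnip3l, Ddit4 and Vegfa. Of 8 dissociation genes tested 1 was higher and 2 lower. The higher one, Egr1, was likewise tested only through the cycling cells.

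**Figure D3:**
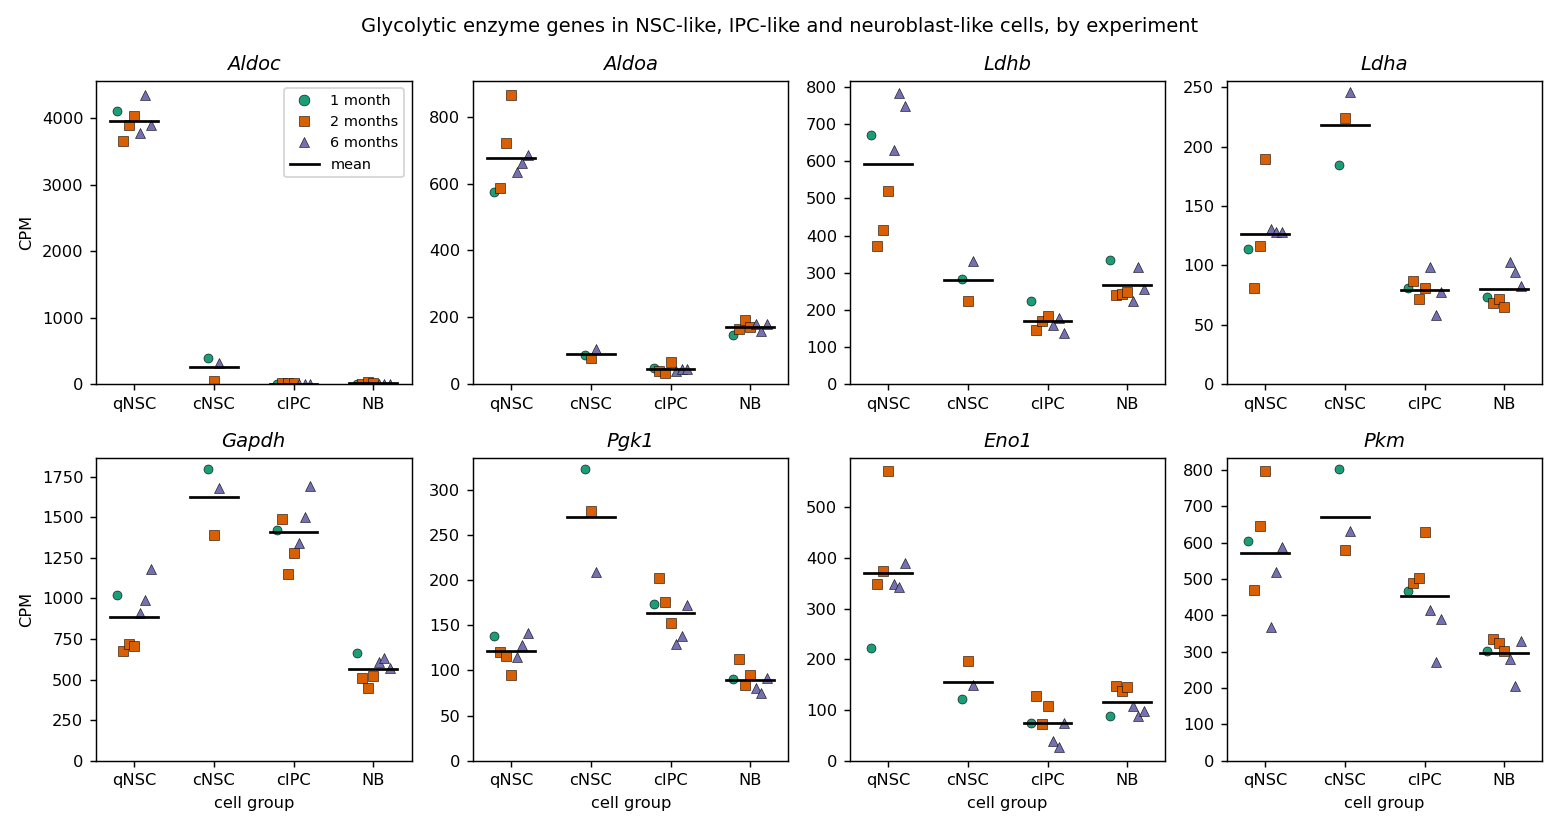
CPM of 8 of the genes in quiescent NSC-like (qNSC), cycling NSC-like (cNSC), cycling IPC-like (cIPC) and neuroblast-like (NB) cells, with 1 point per experiment (shape and colour give the age) and a line at the mean, on linear axes from 0 that differ between panels. Aldoc and Aldoa dropped at the cycling NSC-like group, Gapdh stayed high through both cycling groups at means of 1630 and 1410 CPM before 566 CPM in neuroblast-like cells, and Aldoa was above its cycling IPC-like level again in neuroblast-like cells.

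Neuroblast-like cells, the non-cycling neuronal group, held less of the set than quiescent NSC-like cells. Of 9 genes tested 8 were lower and 0 higher (edgeR, 7 experiments), where 77.5% of 4274 genes were called, 38.6% higher and 39% lower. The median was -1.11 over the 9 genes and 0.03 over all. Aldoa was at 171 ± 15.4 against 675 ± 98.8 CPM (-2.17 ± 0.09, adjusted p = 3.8e-18), Eno1 at 116 ± 26.7 against 371 ± 104 CPM (-1.82 ± 0.11, 5.5e-15) and Ldhb at 266 ± 41.5 against 591 ± 160 CPM (-1.33 ± 0.11, 3e-12). Pkm was lower by -1.11 ± 0.11 (1.6e-10), Gapdh by -0.84 ± 0.09 (3.2e-09), Ldha by -0.81 ± 0.13 (1.8e-06) and Pgk1 by -0.71 ± 0.12 (6.2e-06), the last in 6 of 7 experiments and the others in 7 of 7. Aldoc, counted among the 8, was at 11.1 ± 9.93 against 3950 ± 225 CPM, lower in 7 of 7. No fold is given, since the neuroblast-like level stood below all the tracers. Hk1 was at 57.0 ± 14.6 against 45.2 ± 18.5 CPM (-0.03 ± 0.18, adjusted p = 0.89), and Hk2, below the filter, at 6.88 ± 6.06 against 9.27 ± 8.61 CPM. By total UMIs the median of all genes was 0.24, and the counts of 8 lower and 0 higher stood. Of the other pathway genes 9 were tested, 7 lower, led by Mpc1 at -1.55 ± 0.10 (6.9e-14), the isomerase Gpi1 at -1.35 ± 0.12 (6.6e-11) and the mutase Pgam1 at -1.26 ± 0.10 (3.2e-12), and 2 higher, Pdhb at 0.36 ± 0.12 (0.0098) and Bpgm at 0.35 ± 0.16 (0.046). Tricarboxylic acid cycle genes were lower in 8 and higher in 2 of 14, dissociation genes lower in 3 and higher in 2 of 7, and hypoxia genes higher in 2 and lower in 0 of 4. Of those called higher, Dlst of the cycle and the dissociation genes Ier2 and Egr1 passed the filter through neuroblast-like cells only. For them the filter favoured this direction. Of the other pathway genes 8 passed in quiescent NSC-like cells alone, so not all 9 tested here did.

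Between the cycling and the non-cycling neuronal group the set split again. By the gate, cycling IPC-like cells held a UMI of Eomes or Neurog2. Neuroblast-like cells held a UMI of Dcx and none of those genes, so cell stage and cycling cannot be told apart here. Of 8 genes tested, neuroblast-like cells were higher in 4 and lower in 3 than cycling IPC-like cells (edgeR, 7 experiments), with 53.3% of 5446 genes called, 26.2% higher and 27.1% lower. The median was 0.25 over the 8 genes and 0.02 over all. Aldoa had 147, 170 and 193 CPM as lowest, median and highest in neuroblast-like and 32.6, 44.6 and 65.1 CPM in cycling IPC-like cells, without overlap (1.88 ± 0.14, adjusted p = 7.6e-13). Hk1 was higher by 1.20 ± 0.24 (0.00012), in 6 of 7 experiments, Ldhb by 0.69 ± 0.09 (3.4e-07) and Eno1 by 0.51 ± 0.14 (0.0036), both in 7 of 7. Gapdh had 451, 572 and 663 CPM in neuroblast-like and 1150, 1420 and 1690 CPM in cycling IPC-like cells, also without overlap (-1.28 ± 0.07, 8.8e-16). Pgk1 was lower by -0.85 ± 0.11 (1.8e-07) and Pkm by -0.54 ± 0.09 (5.4e-06), in 7 of 7. Ldha was at 79.9 ± 14.5 against 79.4 ± 12.7 CPM (-0.01 ± 0.14, adjusted p = 0.98). Below the filter, Hk2 was at 6.88 ± 6.06 against 8.54 ± 8.02 CPM and Aldoc at 11.1 ± 9.93 against 8.1 ± 7.65 CPM, below the tracers in both groups. Depth differed too, with 3650 to 15100 UMIs per cell on average per experiment in cycling IPC-like and 2360 to 8110 in neuroblast-like cells. The differences are in shares of UMIs, and levels per cell were not compared. This comparison and the previous one share the neuroblast-like cells. Of 13 other pathway genes tested, Pfkl was higher, at 0.73 ± 0.21 (0.0041), and Slc2a4, at -3.53 ± 0.41 (1.1e-08), Tpi1, at -0.50 ± 0.11 (0.00024), and Pgam1, at -0.41 ± 0.10 (0.0013), were lower. Slc2a4 was below the filter in neuroblast-like cells and was tested only through the cycling IPC-like cells, so the filter favoured this direction. Of 15 tricarboxylic acid cycle genes 3 were higher and 7 lower. Moving with this comparison, 6 of 7 dissociation genes tested (Btg2, Dusp1, Egr1, Fos, Ier2 and Junb) were higher in neuroblast-like cells and 0 lower, with sums of 3730 against 2660 CPM, as were 3 of 4 hypoxia genes (Bnip3, Bnip3l and Ddit4), and their part in the result was not tested.

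A second dividing population, the OPC-like cells, was used to see which cycling differences belong to NSC-like cells. The gate above left 19 cycling OPC-like cells and no experiment with 10, so a wider gate that sets aside no cells with markers of more than 1 lineage was added after the data were examined. It gave 26 to 81 cycling OPC-like cells in 3 experiments, the one at 1 month, the second at 6 months and the third at 6 months. Over all experiments these cells went from 19 to 151. All cells gained had been set aside by the first gate for markers of more than 1 lineage, so most of this group carried them. The part of doublets in the results for cycling OPC-like cells and the interaction was not tested. In this gate cycling OPC-like cells were deeper, at 8970 to 13000 UMIs per cell on average per experiment. Non-cycling ones had 1370 to 7850 over all experiments. Of 9 genes tested 2 were higher and 3 lower in cycling than in non-cycling OPC-like cells (edgeR), with 34.8% of 7494 genes called, 19% higher and 15.8% lower, and a median of -0.02 over the 9 genes and over all.

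Aldoa was at 177, 73.9 and 139 CPM in cycling and 368, 404 and 406 CPM in non-cycling OPC-like cells (-1.60 ± 0.13, adjusted p = 1.6e-10), and Aldoc at 133, 198 and 183 against 293, 501 and 425 CPM (-1.24 ± 0.10, 6e-11). The part of free RNA and of depth in this Aldoc difference was not tested. Ldhb was lower by -0.48 ± 0.09 (5.8e-05) and Pgk1 higher by 0.54 ± 0.10 (0.00016), both in 3 of 3. Gapdh was higher by 0.28 ± 0.07 (0.0037) in 3 of 3, which was lost without the third experiment at 6 months (0.27, adjusted p = 0.11). Eno1 was at 387 to 517 against 471 to 548 CPM, lower in 2 of 3 experiments (-0.13 ± 0.09, adjusted p = 0.27), which became a call without the experiment at 1 month (-0.22, adjusted p = 0.024). Ldha (0.12 ± 0.10, adjusted p = 0.40), Hk1 (0.07 ± 0.19, 0.82) and Pkm (-0.02 ± 0.09, 0.89) were not called, and Hk2, below the filter, was at 2.01 ± 1.74 against 1.33 ± 0.494 CPM. Of 15 other pathway genes tested Tpi1, at 0.83 ± 0.11 (3.7e-07), and Pgam1, at 0.46 ± 0.08 (5.8e-05), were higher, and Bpgm, at -0.55 ± 0.12 (0.0005), Pfkm, at -0.50 ± 0.18 (0.037), and Mpc2, at -0.27 ± 0.09 (0.019), lower. Of 9 dissociation genes tested 3 were higher and 1 lower.

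The difference between both cycling effects was tested as an interaction in the wider gate, over the same 3 experiments. It was called for 6 of 9 genes, 2 higher and 4 lower in NSC-like cells, where 19.2% of 8131 genes were called, 9.42% higher and 9.74% lower. Aldoc differed most, by -2.86 ± 0.27 (adjusted p = 5.3e-09), and Ldhb by -0.87 ± 0.15 (0.00013), and both calls held without any 1 experiment. The part of free RNA in the Aldoc difference was not tested. Aldoa differed by -0.97 ± 0.24 (0.0036) and Eno1 by -0.93 ± 0.21 (0.0015), both lost without the third experiment at 6 months (adjusted p = 0.084 and 0.063). Ldha differed by 0.70 ± 0.18 (0.0045), lost without the experiment at 1 month (0.50, adjusted p = 0.13), and Gapdh by 0.44 ± 0.14 (0.027), lost without any 1 of the 3 (adjusted p = 0.20, 0.23 and 0.085). Pgk1 (0.22 ± 0.21, adjusted p = 0.52), Pkm (0.34 ± 0.16, 0.13) and Hk1 (-0.82 ± 0.33, 0.079) were not called, and Hk2 was below the filter. Of 16 other pathway genes 4 were lower, the steepest Pfkl at -1.19 ± 0.38 (0.025), Pfkm at -1.03 ± 0.36 (0.043) and Mpc1 at -0.77 ± 0.16 (0.00076).

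**Figure D4:**
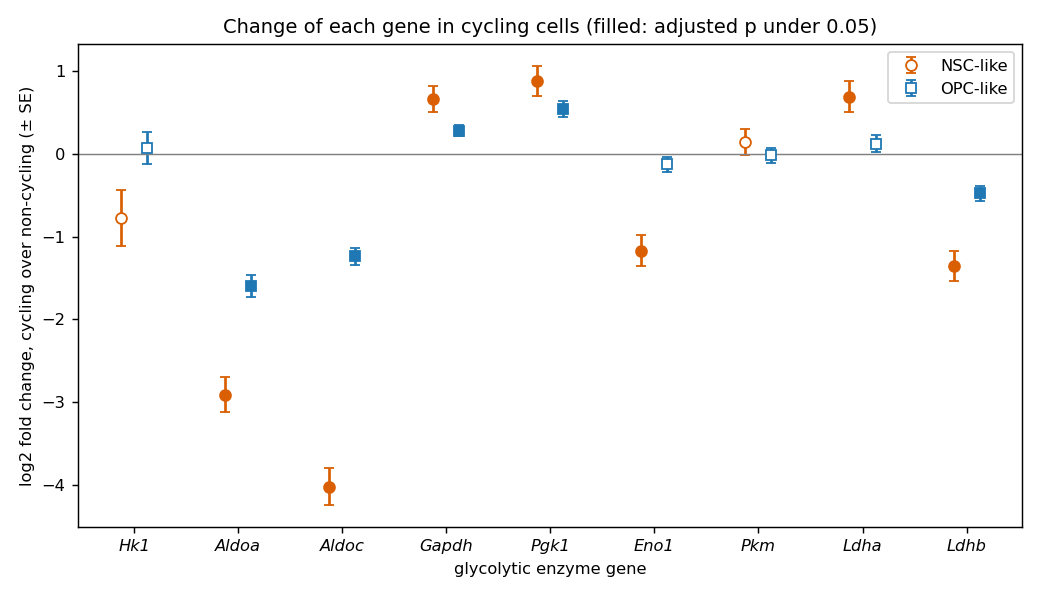
Log2 fold change of cycling over non-cycling cells (± SE from the edgeR fit, 3 experiments each) for 9 genes in NSC-like (circles) and OPC-like cells (squares, wider gate), filled where the adjusted p was below 0.05. Aldoa, Aldoc and Ldhb were lower and Gapdh and Pgk1 higher in cycling cells of both lineages, with Aldoc at -4.02 in NSC-like and -1.24 in OPC-like cells. The lineages do not share all 3 experiments, and the part of free RNA in OPC-like Aldoc was not tested.

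Oligodendrocyte-like cells differed from non-cycling OPC-like cells in all 8 genes tested, 3 higher and 5 lower (edgeR, 7 experiments), where 78% of 4033 genes were called, 38.3% higher and 39.7% lower. The median was -0.83 over the 8 genes and -0.02 over all. Aldoa was at 656 ± 126 against 357 ± 47.5 CPM (1.21 ± 0.11, adjusted p = 4.6e-07), Gapdh at 740 ± 81.8 against 540 ± 218 CPM (0.87 ± 0.16, 0.00021) and Pgk1 at 155 ± 20.2 against 121 ± 30.1 CPM (0.72 ± 0.12, 9.1e-05). Eno1 was at 85.2 ± 24.8 against 503 ± 90.8 CPM (-2.24 ± 0.13, adjusted p = 2.4e-09) and Ldha at 26.9 ± 7.1 against 146 ± 27.4 CPM (-1.98 ± 0.11, 1.8e-09). These fold changes are TMM-scaled, so they differ from the ratios of the CPM means beside them. Aldoc was lower by -1.97 ± 0.25 (8e-06) in 6 of 7 experiments, the exception being the 13 cells at 1 month, with the oligodendrocyte-like level within the range of the tracers. Ldhb was lower by -0.99 ± 0.19 (0.00031) and Pkm by -0.66 ± 0.12 (0.00026), in 7 of 7. Without the filter on low counts Pkm was at -0.24 (adjusted p = 0.064), no longer called. Below the filter, Hk1 was at 13.9 ± 4.05 against 35.8 ± 7.88 CPM, lower in 7 of 7 experiments (-0.66, adjusted p = 0.00019 in edgeR without the filter), and Hk2 at 1.25 ± 1.06 against 1.54 ± 2.09 CPM. By total UMIs the median of all genes was -0.49 and 27.9% of calls were higher in place of 49%, while the 8 genes were called 3 higher and 5 lower as before. Of 11 other pathway genes tested 6 were higher, led by Slc2a1 at 2.47 ± 0.13 (8.5e-10), the lactate transporter Slc16a1 at 2.14 ± 0.19 (2.2e-07) and Bpgm at 1.85 ± 0.11 (4.2e-09), and 2 lower, Bsg at -1.08 ± 0.09 (8.5e-08) and Pdhb at -0.42 ± 0.10 (0.0017). Of the hypoxia genes 6 were tested, 4 were higher and 1 lower, and their sum was 1740 CPM in oligodendrocyte-like against 535 CPM in non-cycling OPC-like cells.

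With age, quiescent NSC-like cells showed no called difference in the set. Of 8 genes tested between 6 months (3 experiments) and 1 month (1 experiment), 0 passed in edgeR and 0 in DESeq2, with 1 (Eno1) at an unadjusted p below 0.05 in edgeR, where 0.45% of 3113 genes were called, 0.321% higher and 0.128% lower. Aldoc was at 4100 CPM at 1 month, at 3660, 3890 and 4030 CPM at 2 months and at 3770, 4340 and 3900 CPM at 6 months (6 months against 1 month, -0.05 ± 0.22, adjusted p = 1.0). The value at 1 month lay above all at 2 months and within the range at 6 months. Eno1 had the largest estimate, with 222 CPM at 1 month and 348, 343 and 391 CPM at 6 months (0.69 ± 0.25, adjusted p = 0.36). Gapdh was at 1020 CPM, then 674, 722 and 710 CPM, then 912, 988 and 1180 CPM, and Ldhb at 671, then 371, 416 and 519, then 630, 784 and 750 CPM. For both, all values at 2 months were below all others, and 2 months and Version 2 chemistry cannot be told apart. Pkm was at 604 CPM at 1 month and at 368, 520 and 589 CPM at 6 months, all lower (-0.29 ± 0.25, adjusted p = 0.97). The remaining estimates lay between -0.10 ± 0.24 for Pgk1 and 0.19 ± 0.23 for Aldoa, and Hk1 and Hk2 were below the filter. With 1 experiment at 1 month, the spread at that age was taken from the other ages.

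**Figure D5:**
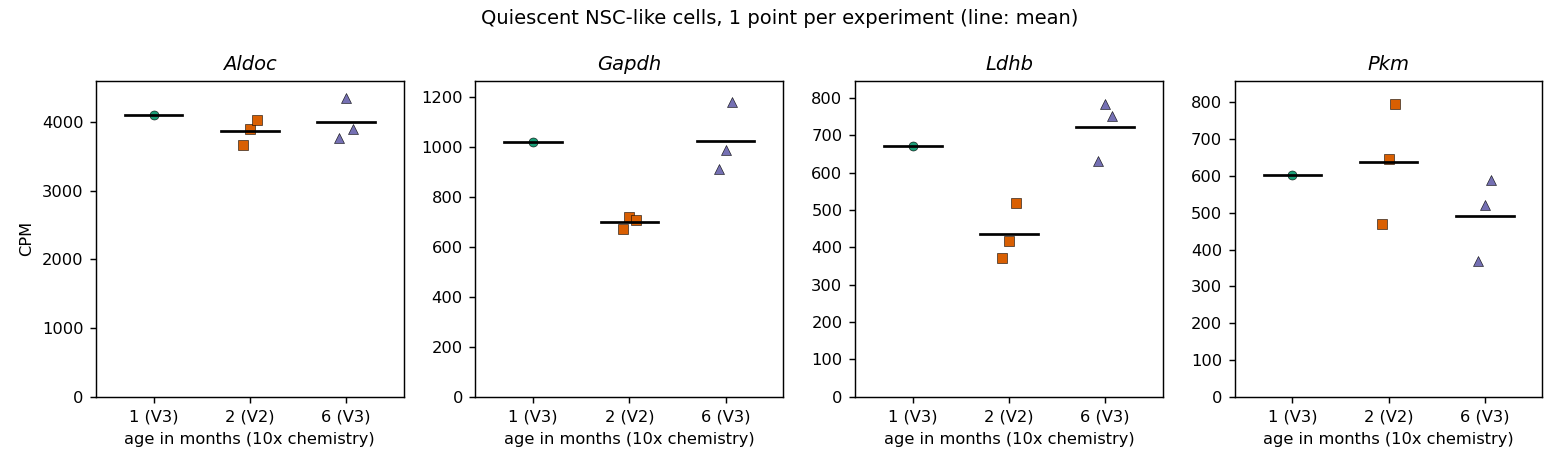
CPM of Aldoc, Gapdh, Ldhb and Pkm in quiescent NSC-like cells by age in months, with the 10x chemistry version in brackets, 1 point per experiment and a line at the mean, on linear axes from 0. Aldoc at 1 month lay within its range at 6 months, Pkm at 1 month (604 CPM) above its values at 6 months (368 to 589 CPM), and Gapdh and Ldhb were lowest in the Version 2 experiments at 2 months.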

How the data were processed

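Single-cell RNA of the dentate gyrus was sequenced with 10x 3′ kits. The deposited values are counts of UMIs per gene and barcode, which the authors made with Cell Ranger 3.0.2 on a custom mm10 genome and merged over 8 libraries without normalization; the submitters' processing notes also name cutadapt 1.18 and Seurat. Columns of samples left unmapped numbered 0. Kept barcodes had more than 500 genes detected and a mitochondrial share below 10%. Between libraries 59 barcode sequences recurred. Libraries were grouped by their labels, and the library pair of the first experiment at 2 months was summed.

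Cells were gated by markers counted as detected with 1 UMI: at least 3 of 8 lineage markers and at least 2 more than in any other lineage. Cells with at least 3 markers of each of a pair of lineages, other than OPC with oligodendrocyte, were set aside as doublets. NSC-like and astrocyte-like cells were split by 12 and 10 further markers, cycling cells had at least 3 of 12 cycling genes, and non-cycling cells 0 of 12 and at most 1 (Version 2) or 2 (Version 3) of 9 replication genes. Cycling neuronal cells with a UMI of Eomes or Neurog2 were IPC-like. Non-cycling neuronal cells with a UMI of Dcx and none of Eomes and Neurog2 were neuroblast-like. The wider gate, used for cycling OPC-like cells and the interaction, set no doublets aside and required a margin of 3 markers. From the first to the wider gate, non-cycling OPC-like cells went from 357 to 1837 in the third experiment at 6 months (Version 3). In the second at 2 months (Version 2) they went from 324 to 285.

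UMIs were summed per group and experiment (at least 10 cells) and tested with edgeR 4.0.16 in R 4.3.3 (quasi-likelihood test, TMM, Benjamini-Hochberg adjustment at 0.05 over all genes detected in 20% or more of the cells in one group or the other). The experiment was a block, since the groups of 1 experiment come from the same pooled mice. A gene that reached 20% of the cells in only 1 group entered through that group, which favours a higher call there. SE is the log2 fold change over the root of F. Shares needed 10 UMIs of the pair. The fits were tested on simulated data with 200 genes changed by 2 on the log2 scale. Of these, 35% were recovered in the interaction, 66.8% in cycling NSC-like cells and 67.2% in the age comparison. The other comparisons recovered 86.7% to 100%. A gene left uncalled in the first 3 may therefore still differ. DESeq2 1.42.0, total UMI scaling, no filter, other gates and left-out experiments were alternatives. Total UMI scaling used the UMIs of the genes tested, whereas CPM used the UMIs of all genes. All 10 genes are named in each comparison, with values for those below the filter where the groups are compared within experiments. Of the other pathway genes, the 3 steepest calls in each direction are named. The members and lists were chosen with earlier results of these data known. Coordinates are from GENCODE M21, promoters from RefSeq (GRCm38.p6). Intervals and floors cover counting error only.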

Additional observations from a re-analysis of the deposited data

Results flagged for a closer look

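Of 72 levels of a gene in a cell group with 4 to 10 experiments, 3 had a value that stood apart from the other experiments by Dixon's test, where chance flags about 1 in 20. Aldoa in non-cycling OPC-like cells was low in the first experiment at 2 months, at 259 CPM against a median of 366 CPM. Eno1 in the same group was high in the third experiment at 2 months, at 692 CPM against a median of 482 CPM. Aldoc in oligodendrocyte-like cells was high at 1 month, at 265 CPM against a median of 58.5 CPM, from 36 UMIs in 13 cells.

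The cycling effect differed between NSC-like and OPC-like cells by the interaction test for 6 of 9 genes, where 19.2% of all 8131 genes were called. The log2 difference was -2.86 for Aldoc, -0.97 for Aldoa, -0.93 for Eno1 and -0.87 for Ldhb, lower in NSC-like cells, and 0.70 for Ldha and 0.44 for Gapdh, higher in NSC-like cells. The calls for Aldoc and Ldhb held without any 1 experiment, and each of the others was lost without at least 1. The test rests on 3 experiments and on the wider gate, and the part of free RNA in OPC-like Aldoc was not tested.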

How the results depend on the processing

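Counts of called genes moved by over 1.5 times in some settings. Without the filter on low counts they were 3459 (astrocyte-like against quiescent NSC-like cells), 7271 and 4453 (neuroblast-like against quiescent NSC-like and cycling IPC-like cells), 9242 (oligodendrocyte-like) and 66 (age, 14 in the report). With DESeq2 they were 1429 for cycling NSC-like and 1523 for cycling OPC-like cells. With no replicate block, that is without pairing groups by experiment, they were 1151 for astrocyte-like, 1620 for cycling NSC-like and 1566 for cycling OPC-like cells and 770 for the interaction, and Ldha and Pkm (astrocyte-like), Eno1 (neuroblast-like against cycling IPC-like) and Gapdh (cycling OPC-like, interaction) lost their calls. Without 1 experiment they ranged from 1569 to 2268 for cycling NSC-like and 1541 to 2702 for cycling OPC-like cells, 798 to 1116 for the interaction and 9 to 58 for age; the counts past 1.5 times were 1569 without the experiment at 1 month, 1541 and 798 without the third at 6 months, and, for age, 58 and 40 without the first and the third at 2 months and 9 without the third at 6 months. The age count was 24 with at least 4 markers and 24 in the wider gate.

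Of 851 repeated member values, 799 kept direction and call, 20 lost the call, 3 gained it and 29 changed sign, all of them uncalled. Hk1 in neuroblast-like against quiescent NSC-like cells was 0.19 by total UMIs, 0.14 with DESeq2, 0.09 without the filter, 0.04 with at least 2 markers, 0.04 with no block and -0.14 to 0.22 without 1 experiment. Ldha in neuroblast-like against cycling IPC-like cells was 0.01 with DESeq2, 0.01 without the filter, 0.05 with no block, 0.08 in Version 3 libraries, 0.02 with at least 5 cycling genes, 0.07 in the wider gate and -0.08 to 0.05 without 1 experiment. Without 1 experiment, Hk1 and Pkm in cycling OPC-like cells ranged from -0.09 to 0.32 and -0.06 to 0.05 and Pgk1 in the interaction from -0.24 to 0.43. For age, Gapdh was 0.05 by total UMIs, 0.02 with at least 2 markers and -0.11 to 0.06 without 1 experiment, and Ldha and Ldhb were -0.02 and -0.08 without the filter.

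No isoform share passed the threshold among 17 tests, and some passed in settings with fewer tests in the family. With at least 2 markers the Ldhb differences were 9.57 (astrocyte-like), 8.73 (neuroblast-like against cycling IPC-like) and 13.6 points (oligodendrocyte-like) and the Aldoc differences -79.6 (neuroblast-like) and -34.4 points (oligodendrocyte-like), each at an adjusted exact p of 0.0437. With at least 4 markers they were 8.76, 8.89, 13.3, -79.9 and -34.5 points, also at 0.0437. As a mean over cells the Ldhb differences were 9.45, -8.07 (neuroblast-like against quiescent NSC-like) and 12.8 points and the Aldoc differences -79.4 and -37.6 points, at 0.0469. In that setting the Ldhb difference between neuroblast-like and quiescent NSC-like cells itself changed (-5.13 points, unadjusted exact p = 0.109, in the report's setting), and that between neuroblast-like and cycling IPC-like cells did not pass. The Hk1 share in cycling OPC-like cells ranged from -3.87 to 0.6 points without 1 experiment. The cause of these changes was not tested. The alternatives on marker and cycling gene numbers were not run in the wider gate.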
